A study of Rattus norvegicus with 9 samples.

Results

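A set of 10 genes of lipoprotein assembly was followed in rat liver, namely the apolipoprotein genes Apoa1, Apoa2, Apoa4, Apoa5, Apob, Apoc1, Apoc3, Apoe and Apoh, and Mttp. They were taken by symbol, and all 10 were found among the 16730 genes that both deposited tables list. The libraries were made from livers of male Sprague-Dawley rats after a 12 h fast, 3 livers per group. Normal control rats received saline. Model rats received carbon tetrachloride (CCl4), a hepatotoxin that injures hepatocytes and leaves scar tissue, as a 50% oil solution at 2 ml/kg for 9 weeks. TA rats received the same CCl4 course and then 3.0 mg/kg tormentic acid (TA), a plant triterpenoid, for 6 weeks. The dose of TA stands in the description of the series and not in the labels of the single samples. The question was whether the fibrotic liver and the TA-treated liver differed in the messenger RNAs from which plasma lipoproteins are built.

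Hepatocytes build very low density lipoprotein (VLDL) around a single ApoB molecule, and the microsomal triglyceride transfer protein, encoded by Mttp, loads lipid onto it in the endoplasmic reticulum. The small exchangeable apolipoproteins ride on the finished particles and steer their fate in plasma: ApoE binds hepatic receptors, ApoC-III slows the breakdown of triglyceride-rich particles, ApoA-V promotes it, and ApoA-I and ApoA-II form the protein coat of high density lipoprotein (HDL). The liver is the main source of most of these proteins, and the small intestine is the other large source of ApoB, ApoA-I and ApoA-IV.

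Between 13156735 and 18090405 reads were counted per liver. Model liver 1 stood apart from the others. Its 50 most abundant genes held 27.9% of its counted reads, against 40.4% to 45.7% in the other 8 livers, and its scaling factor by the trimmed mean of M values (TMM) was 1.69, against 0.816 to 1.16 elsewhere. The 10 hepatocyte markers (Alb, Ttr, Tf, Serpina1 and others) were all detected in every liver, and their summed level was 157981 to 195434 CPM (read counts scaled to a common library size with TMM) in normal livers, 45176 to 137411 in model livers and 134526 to 214227 in TA livers. The lowest of these sums was that of model liver 1. The 8 stellate cell and fibroblast markers summed to 199 to 289 CPM in normal livers, 1154 to 12484 in model livers and 660 to 1156 in TA livers, with the highest sum in model liver 1, and the 11 macrophage markers to 383 to 589, 493 to 3543 and 434 to 956. In a bulk library fewer hepatocytes and less RNA per hepatocyte cannot be told apart.

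The 4 apolipoprotein genes Apoa1, Apoc3, Apoa4 and Apoa5 follow each other on rat chromosome 8, and Apoc1 and Apoe are neighbours on chromosome 1 beside Apoc4 and Apoc2. The other members lie alone, Apoa2 on chromosome 13, Apob on chromosome 6, Apoh on chromosome 10 and Mttp on chromosome 2 (RefSeq, GRCr8). RefSeq promoter sequences were at hand for 5 of the 10 members (Apoa4, Apoa5, Apoc1, Apoe and Apoh). Those of Apoa4 and Apoc1, the members with the largest differences between model and normal livers, and of Apoa5, a neighbour of Apoa4, are shown as examples. Each covers 250 bases before a listed start (position -1 is the last base). Capitals mark matches, on either strand, to the TATA box TATAAA, to AAAGTCC (the core of many HNF4 elements), to the nuclear receptor half-site AGGTCA and to the CCAAT box CCAAT, which reads ATTGG on the opposite strand.
Apoa4 promoter, chr8:55435529-55435778, plus strand: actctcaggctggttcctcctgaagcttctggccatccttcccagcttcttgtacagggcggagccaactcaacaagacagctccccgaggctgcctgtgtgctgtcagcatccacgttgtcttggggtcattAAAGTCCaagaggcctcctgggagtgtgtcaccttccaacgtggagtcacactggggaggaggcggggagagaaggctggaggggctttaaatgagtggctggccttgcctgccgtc
Apoa5 promoter, chr8:55457621-55457870, plus strand: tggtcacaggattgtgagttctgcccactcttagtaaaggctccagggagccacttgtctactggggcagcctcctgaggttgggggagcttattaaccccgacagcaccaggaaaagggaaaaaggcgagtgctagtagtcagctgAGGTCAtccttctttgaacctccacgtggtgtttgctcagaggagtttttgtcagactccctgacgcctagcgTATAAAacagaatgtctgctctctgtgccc
Apoc1 promoter, chr1:88478221-88478470, minus strand: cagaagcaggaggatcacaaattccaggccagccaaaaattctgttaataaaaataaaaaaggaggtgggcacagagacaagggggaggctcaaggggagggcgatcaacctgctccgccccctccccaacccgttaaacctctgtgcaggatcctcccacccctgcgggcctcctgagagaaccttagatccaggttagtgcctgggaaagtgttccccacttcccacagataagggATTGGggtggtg
Among the member promoters AAAGTCC was found in that of Apoa4 alone, at position -117, and 3.99% of the 33469 rat promoter windows of the same length hold it. TATAAA stood at position -30 of the first of 2 listed Apoa5 starts (12.9% of windows hold it), with AGGTCA at position -103 (14.1%). The second listed start of Apoc1 had CCAAT at position -12 (34% of windows), and its first listed start, not shown, had no match. Of the 3 listed starts of Apoe only the third had a match, CCAAT at position -176, and Apoh had none. A match of letters is a description of the window and not a site of binding.

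Per length, in FPKM (fragments scaled for gene length and depth), Apoe was the most abundant of the 10 messages in every group, at 19640 ± 2510 (SD, n = 3) in normal livers. Apoc1 (10537 ± 4136) and Apoc3 (9640 ± 1880) followed, and their ranges overlapped. Apoa2 had 5782 ± 486 and Apoh 3942 ± 263. Apoa1 (1064 ± 569.9) and Apoa5 (605 ± 196) formed the next pair, again with overlapping ranges, and Apob (215 ± 21.6), Apoa4 (166 ± 93.7) and Mttp (30.8 ± 6.13) were lowest. In the means the order differed in the other groups. In model livers Apoh (2157 ± 1265) stood above Apoa2 (1960.1 ± 1449), with overlapping ranges, and Apoa4 (34.8 ± 37.0) was last beside Mttp (34.9 ± 13.9), with overlapping ranges. In both model and TA livers the mean of Apoc3 was above that of Apoc1, again with overlapping ranges.

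Taken as a share of all counted reads, the 10 messages made up 5.37%, 4.97% and 6.12% in the 3 normal livers, 1.83%, 3.13% and 3.87% in the 3 model livers and 3.79%, 4.22% and 4.39% in the 3 TA livers. Every model and every TA liver was below every normal liver. Model and TA livers overlapped, since model liver 3 (3.87%) was above TA liver 1 (3.79%). The mean share was 5.49 ± 0.585% (SD, n = 3) in normal livers, 2.95 ± 1.03% in model livers and 4.13 ± 0.311% in TA livers. The log2 ratio was -0.96 for Model VS Normal (two-sided exact permutation test, p = 0.1), 0.55 for TA VS Model (exact p = 0.2) and -0.41 for TA VS Normal (exact p = 0.1). With 3 livers against 3 the smallest p this test can give is 0.1, so no difference of shares could reach 0.05.

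**Figure D1:**
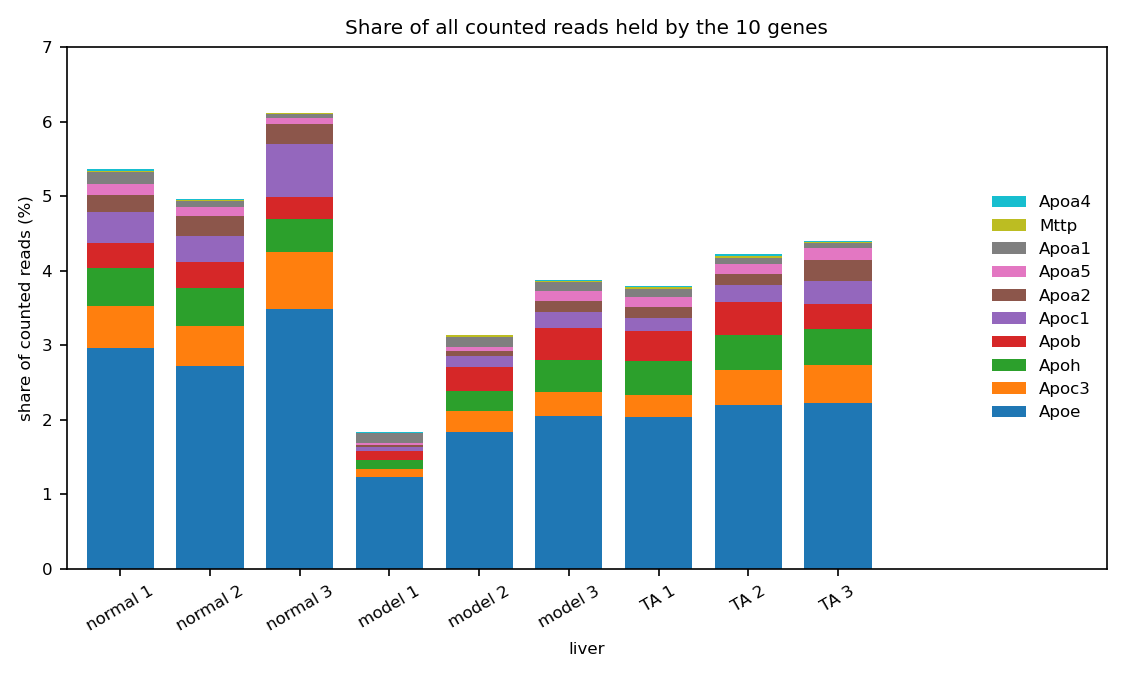
Share of all counted reads (%, vertical axis) held by each of the 10 genes, stacked, in each of the 9 livers (horizontal axis). The 3 normal livers reach 4.97% to 6.12% and model liver 1 is lowest at 1.83%, and Apoe makes up the largest block of every bar.

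In Model VS Normal most of the exchangeable apolipoprotein messages were at a lower level in every fibrotic liver. The carrier Apob, the loading factor Mttp, the HDL gene Apoa1 and also Apoa5 showed no such separation. All 10 estimated log2 fold changes were under 0, where 49% of the 12730 genes tested were, and the median over the members was -1.34, against 0.02 over all genes. In 6 of the 10 (Apoa2, Apoa4, Apoc1, Apoc3, Apoe and Apoh) every model liver was below every normal liver. Of all genes tested 17.4% were lower without overlap, 20.8% were higher, and 38.2% were without overlap in either direction. By edgeR's quasi-likelihood test none of the 10 passed an adjusted p of 0.05, which 7.87% of all genes did (6.86% as higher, 1.01% as lower). At an unadjusted p under 0.05, which 28.9% of all genes reached, 4 members were lower (Apoa2, Apoa4, Apoc1 and Apoc3). These 4 also met the rule of the study, which asks in addition that the log2 change pass 1 in size and which 22.1% of all genes met (16.6% as higher, 5.55% as lower). DESeq2 on the same counts gave 5 members an adjusted p under 0.05, these 4 and Apoe, and called 2654 genes in all (20.8%) where edgeR called 1002.

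**Figure D2:**
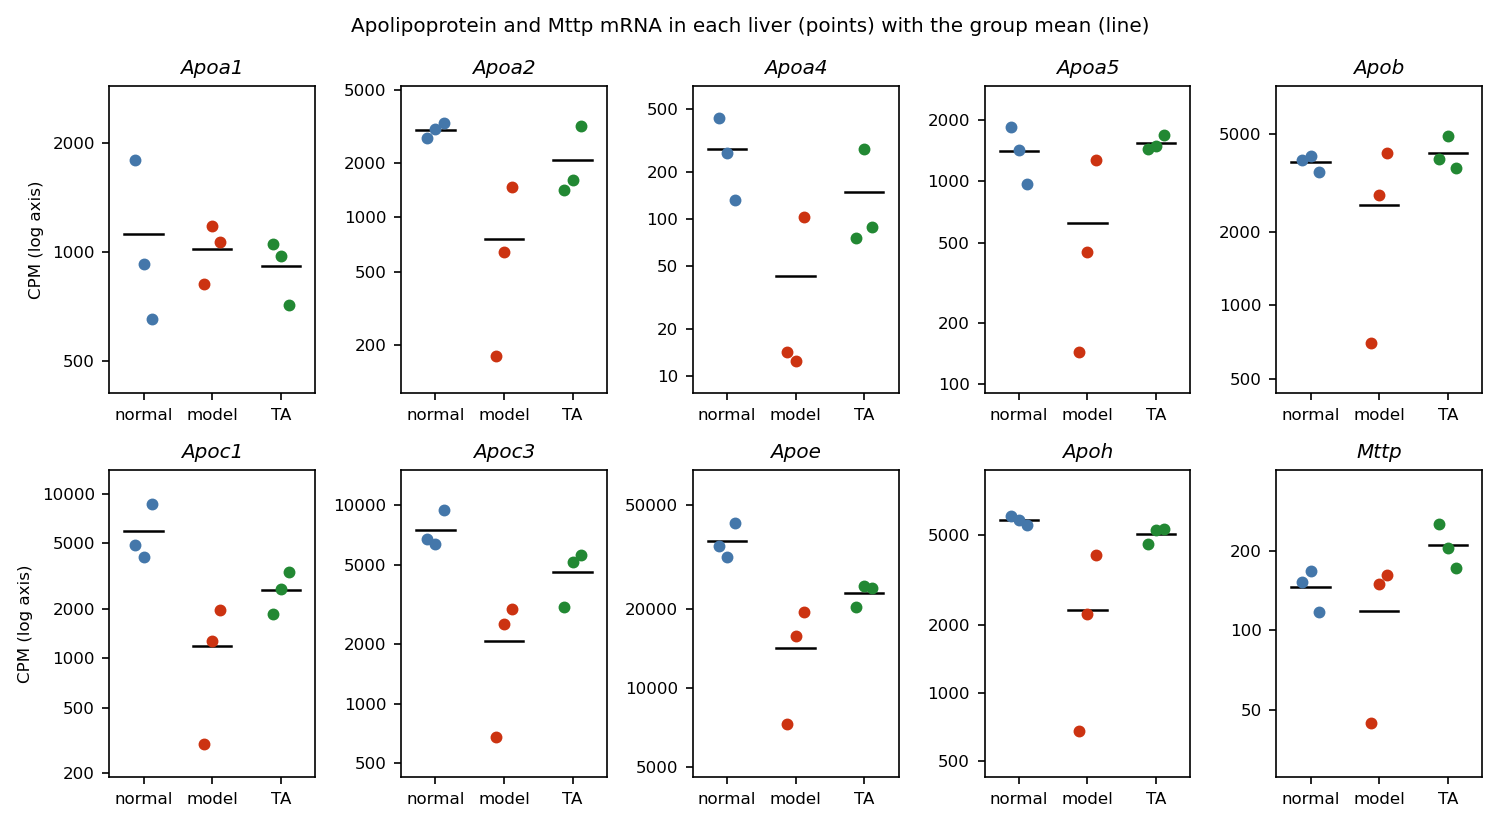
Level of each gene in CPM (vertical axis, log scale, a separate range for each panel) in the 3 livers of each group (points) with the group mean (line). Model liver 1, the leftmost red point, is the lowest model liver in 9 of the 10 panels, and the exception is Apoa4, where model liver 2 was lower still (12.4 CPM against 14.2).

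Apob, the carrier of VLDL, stood at 3906, 4075 and 3513 CPM in normal livers, at 699, 2828 and 4167 CPM in model livers and at 3948, 4905 and 3636 CPM in TA livers. The third model liver was thus above all 3 normal livers the second was below them, and the first was far below them. The Model VS Normal log2 fold change of Apob was -0.58 ± 0.71 (SE, edgeR, adjusted p = 0.614), TA VS Model was 0.70 ± 0.73 (adjusted p = 0.639) and TA VS Normal 0.09 ± 0.22 (adjusted p = 0.965). Mttp, the lipid transfer partner of ApoB, had 153, 168 and 118 CPM in normal livers, 44.6, 150.2 and 161 CPM in model livers and 252, 204 and 172 CPM in TA livers. Apart from model liver 1, the model values lay within the normal range, and all 3 TA livers were above all normal and all model livers, although the distance between the lowest TA and the highest normal liver was small. The log2 fold changes of Mttp were -0.30 ± 0.47 for Model VS Normal (edgeR, adjusted p = 0.702), 0.82 ± 0.49 for TA VS Model (adjusted p = 0.420) and 0.49 ± 0.23 for TA VS Normal (adjusted p = 0.580), none of which passed. Without model liver 1 the Model VS Normal estimate of Mttp turned to 0.07.

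The 2 coat proteins of HDL parted. Apoa1 had 1789, 925 and 653 CPM in normal livers, 816, 1177 and 1065 CPM in model livers and 1049.8, 974 and 716 CPM in TA livers. The model livers fell inside the range of the normal livers, and the widest spread was among the normal livers themselves. For Apoa1 the log2 fold change was -0.14 ± 0.50 for Model VS Normal (edgeR, adjusted p = 0.882), -0.15 ± 0.42 for TA VS Model (adjusted p = 0.873) and -0.33 ± 0.37 for TA VS Normal (adjusted p = 0.901). Its sign in Model VS Normal turned without normal liver 1 (0.35) and with library totals in place of TMM (0.45, where the median of all genes stood at 0.65). Apoa2 was at 2721, 3079 and 3297 CPM in normal livers, 172, 646 and 1474 CPM in model livers and 1411, 1599.8 and 3171 CPM in TA livers. All 3 model livers were below all 3 normal livers, and the TA livers overlapped both other groups. For Apoa2 it was -1.99 ± 0.76 for Model VS Normal (edgeR, adjusted p = 0.135), 1.44 ± 0.79 for TA VS Model (adjusted p = 0.396) and -0.59 ± 0.32 for TA VS Normal (adjusted p = 0.670).

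Apoc1, an inhibitor of lipoprotein uptake by receptors, was at 4875, 4100.2 and 8733 CPM in normal livers, 301, 1266 and 1969 CPM in model livers and 1857, 2640.1 and 3339 CPM in TA livers. All 6 CCl4-exposed livers, with or without TA, were below the 3 normal livers. Its log2 fold change was -2.32 ± 0.81 for Model VS Normal (edgeR, adjusted p = 0.109) and -1.20 ± 0.35 for TA VS Normal (adjusted p = 0.253). TA VS Model was 1.15 ± 0.72 for Apoc1 (adjusted p = 0.441), and model liver 3 (1969) overlapped TA liver 1 (1857). Apoc3 had 6736, 6354 and 9417 CPM in normal livers, 679, 2523 and 2983 CPM in model livers and 3087, 5197 and 5604 CPM in TA livers. The 3 groups of Apoc3 did not overlap, with the TA livers in between. In the tests Apoc3 had a log2 fold change of -1.86 ± 0.73 for Model VS Normal (edgeR, adjusted p = 0.141), 1.17 ± 0.71 for TA VS Model (adjusted p = 0.428) and -0.73 ± 0.30 for TA VS Normal (adjusted p = 0.472).

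Apoe, the receptor ligand and the most abundant of the 10 messages, followed the layout of Apoc3. It was at 35065, 31656 and 42686 CPM in normal livers, 7287, 15857 and 19556 CPM in model livers and 20441, 24493 and 24225 CPM in TA livers. The groups again did not overlap and the TA livers lay between, close to each other. Tested by edgeR, Apoe had a log2 fold change of -1.35 ± 0.91 for Model VS Normal (edgeR, adjusted p = 0.353), 0.70 ± 0.84 for TA VS Model (adjusted p = 0.688) and -0.69 ± 0.25 for TA VS Normal (adjusted p = 0.396).

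Apoa4, a fasting- and lipid-responsive apolipoprotein, had the largest difference of the 10. It stood at 439, 261 and 132 CPM in normal livers, 14.2, 12.4 and 103 CPM in model livers and 75.7, 279 and 89.4 CPM in TA livers. Model livers 1 and 2 were far below the rest and model liver 3 was close to the lowest normal liver and above 2 of the TA livers. The log2 fold change of Apoa4 was -2.68 ± 0.89 for Model VS Normal (edgeR, adjusted p = 0.0995), 1.78 ± 0.90 for TA VS Model (adjusted p = 0.368) and -0.93 ± 0.58 for TA VS Normal (adjusted p = 0.735). Without model liver 3 its Model VS Normal value was -4.40 with an adjusted p of 0.00681, and its adjusted p over all alternatives ran from 0.00681 to 0.223. Apoa5, the activator of triglyceride clearance, was at 1842, 1429.7 and 967 CPM in normal livers, 145, 447 and 1269.8 CPM in model livers and 1448, 1499 and 1698 CPM in TA livers. All 3 TA livers lay above all 3 model livers and within the normal range, while model liver 3 lay within the normal range as well. For Apoa5 the tests gave -1.18 ± 0.75 for Model VS Normal (edgeR, adjusted p = 0.328), 1.32 ± 0.74 for TA VS Model (adjusted p = 0.403) and 0.10 ± 0.27 for TA VS Normal (adjusted p = 0.969).

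Apoh encodes beta-2-glycoprotein I, a phospholipid-binding plasma protein made by hepatocytes. It was at 6045, 5805 and 5507 CPM in normal livers, 675, 2233 and 4047 CPM in model livers and 4555, 5229 and 5306 CPM in TA livers. The normal livers were close to each other, the 3 groups did not overlap and the TA livers lay just below the normal ones. Its log2 fold change was -1.32 ± 0.74 for Model VS Normal (edgeR, adjusted p = 0.273), 1.12 ± 0.74 for TA VS Model (adjusted p = 0.459) and -0.23 ± 0.21 for TA VS Normal (adjusted p = 0.853).

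**Figure D3:**
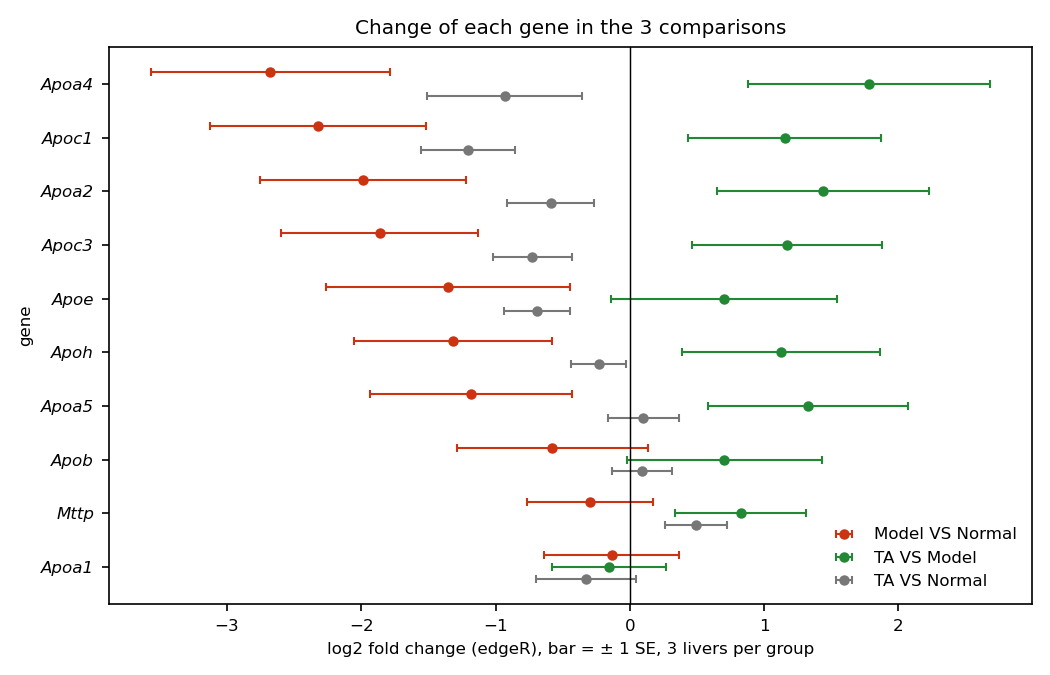
Log2 fold change of each gene by edgeR (horizontal axis, points, bars ± 1 SE, 3 livers per group) in Model VS Normal, TA VS Model and TA VS Normal, ordered from the lowest Model VS Normal value. Apoa4 (-2.68) and Apoa1 (-0.14) are the ends of the Model VS Normal order, and the bars of TA VS Normal are the shortest for every gene.

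In TA VS Model the estimates of most of these messages were above 0, but no difference passed the test. The estimate was above 0 in 9 of 10 members, the exception being Apoa1, where 50.3% of all genes were under 0, and the median was 1.14, against 0.00 over all 12781 genes tested. For 5 of 10 (Apoa5, Apoc3, Apoe, Apoh and Mttp) every TA liver was above every model liver. Of all genes 10.3% were higher without overlap and 23.1% were without overlap in either direction. None of the 10 met either rule by edgeR, where 12.3% of all genes (2.11% as higher) met the rule of the study and 0% had an adjusted p under 0.05. At an unadjusted p under 0.05 edgeR found 1999 genes (15.6%), and DESeq2 gave 541 genes an adjusted p under 0.05, or 4.23%, none of them a member. Model VS Normal and TA VS Model share the 3 model livers, so a low model liver enters both with opposite signs. Without model liver 1 the median over the members was 0.70 in TA VS Model and -0.98 in Model VS Normal.

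In TA VS Normal the members were closer to the normal level, with a median of -0.46 against -0.01 over the 12179 genes tested and 7 of 10 values under 0, as were 51% of all genes. In 4 of 10 (Apoc1, Apoc3, Apoe and Apoh) every TA liver was below every normal liver, and Mttp was higher without overlap, where 5.81% of all genes were lower without overlap, 9.07% higher and 14.9% without overlap in either direction. None had an adjusted p under 0.05 by edgeR, a level that 0.263% of genes reached (0.23% as higher, 0.0328% as lower), and 3 members (Apoc1, Apoc3 and Apoe) had an unadjusted p under 0.05, as did 9.43% of genes. Apoc1 met the rule of the study, as 5.25% of all genes did (4.24% as higher, 1.02% as lower). DESeq2 gave Apoc1 and Apoe an adjusted p under 0.05, as it did 2.96% of genes. Blocking on the replicate number called none of the members either.

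Hepatocyte markers had estimates of the same sign as most members, although by edgeR none of the 10 markers had an adjusted p under 0.05. In Model VS Normal all 10 markers were under 0 with a median of -0.78 and 6 of 10 were lower without overlap, and in TA VS Model all 10 were above 0 with a median of 0.67. Their share of counted reads was 16.4%, 16.8% and 12.9% in normal livers, 7.64%, 15.0% and 14.5% in model livers and 13.7%, 19.2% and 12.3% in TA livers. Each member was therefore also expressed per read of these markers in its own liver, a reference chosen after the data were seen. In Model VS Normal the same 6 members were still lower without overlap (Apoa4 by a log2 change of -2.27, Apoc1 -1.66, Apoa2 -1.50, Apoc3 -1.14, Apoh -0.70 and Apoe -0.50, exact p = 0.1 each), as were 2.03% of all genes tested. For Apoe and Apoh the groups nearly touched. Apoe stood at 16.13% of the marker reads in model liver 1, against 16.20% in normal liver 2. Apoh stood at 2.95% in model liver 3, against 2.97% in normal liver 2. Mttp was then higher without overlap (0.47), as were 44.2% of all genes, and Apob (0.04) and Apoa1 (0.94) were above 0 with overlapping groups. The reference is weighted toward Alb, which held 7.60%, 9.06% and 6.11% of counted reads in normal livers. Of the markers themselves, Ttr, Ambp and Serpina1 were lower without overlap per marker read in Model VS Normal, and Fga was higher. In TA VS Model the members higher without overlap went from 5 to 1 (Apoc3, 0.61, exact p = 0.1), where 0.829% of genes were higher, and Apoa1 was lower (-0.93, exact p = 0.1), where 19.5% of genes were lower. In TA VS Normal no member was lower without overlap (1.29% of genes were), and Mttp (0.72) and Apob (0.31) were higher (exact p = 0.1 each), as 10.8% of genes were.

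Apoa1 was set as a further reference, also after the data were seen, because its level per liver in CPM overlapped between all 3 groups. Its unscaled share of counted reads did not overlap between model and TA livers. That share was 0.138%, 0.136% and 0.112% in model livers and 0.104%, 0.0874% and 0.0656% in TA livers. The lower Apoa1 share of the TA livers enters every TA VS Model ratio given here. The ratio of a gene to Apoa1 within a liver needs no scaling factor. However, Apoa1 was picked for its overlap in TMM-scaled CPM. In Model VS Normal these ratios therefore largely restate the TMM result and are no separate check of it. In Model VS Normal this ratio was lower without overlap for 5 of the other 9 members, at log2 differences of -3.21 for Apoa4, -2.59 for Apoc1, -2.44 for Apoa2, -2.07 for Apoc3 and -1.44 for Apoe (exact p = 0.1 each), where 3.56% of genes were lower. Of the neighbours of Apoa1 on chromosome 8, Apoc3 and Apoa4 were among these 5, and Apoa5 (-1.63) was not, since its groups overlapped. The ratio was higher without overlap in TA VS Model for 5 of 9 (Apoa5 1.99, Apoh 1.62, Apoc3 1.54, Mttp 1.17 and Apoe 0.97), where 15.5% of genes were higher, and in TA VS Normal for Mttp alone (0.71), where 7.69% were higher and 0.567% lower.

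**Figure D4:**
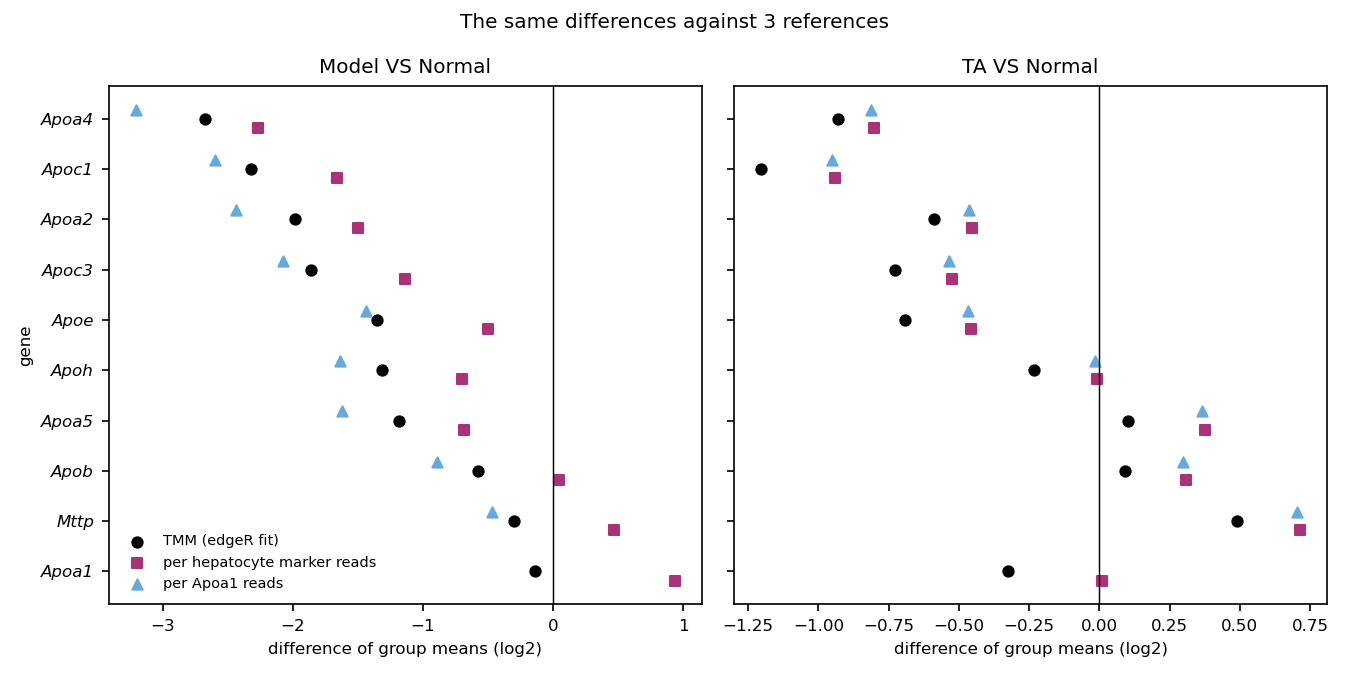
Difference between groups (log2, horizontal axis) of each gene with TMM scaling, per read of the hepatocyte markers and per read of Apoa1, in Model VS Normal (left) and TA VS Normal (right, a narrower axis). The TMM points are log2 fold changes fitted by edgeR. The points of the other references are differences of mean log2 values, so they differ from TMM in the estimator as well as in the reference. Apoa4, Apoc1, Apoa2, Apoc3, Apoe and Apoh are below 0 with every reference in both panels. In TA VS Normal Apoh is close to 0 per hepatocyte marker read (-0.0069) and per Apoa1 read (-0.017). Apoa1, Mttp and Apob pass 0 in Model VS Normal when hepatocyte markers are the reference.

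The genes around the members gave a mixed picture in Model VS Normal. Among the other apolipoproteins edgeR gave none of 7 genes tested an adjusted p under 0.05, 3 (Apoc2, Apoc4 and Apom) had an unadjusted p under 0.05 and met the rule of the study as lower, and the median was -1.40. Apoc2, the cofactor that lipoprotein lipase needs, was lowest, at 2037, 1435 and 2287 CPM in normal livers against 121, 303 and 653 in model livers (log2 fold change -2.42 ± 0.67, edgeR, adjusted p = 0.0638), and at 635, 906 and 1423 CPM in TA livers. By DESeq2 the adjusted p of Apoc2 was 0.000366, and over all alternatives it ran from 0.000366 to 0.174. The 16 other genes of VLDL assembly and secretion had a median of -0.58, and by edgeR none had an adjusted p under 0.05, while 1 was higher and 2 lower at an unadjusted p under 0.05. Dgat2, which makes the triglyceride for secretion, had the smallest p of this list, with 502, 512 and 504 CPM in normal livers against 83.1, 156 and 262 in model livers (log2 fold change -1.60 ± 0.45, edgeR, adjusted p = 0.0680). Its adjusted p over all alternatives ran from 0.00225, by DESeq2, to 0.193.

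Of 13 receptors and uptake genes 2 rose and none fell in Model VS Normal by adjusted p, and the median was -0.26. Vldlr, the VLDL receptor, was at 0.831, 0.386 and 0.588 CPM in normal livers and at 19.1, 12.2 and 8.35 CPM in model livers. All model livers were far above all normal livers (log2 fold change 4.46 ± 0.49, edgeR, adjusted p = 0.00871). Lrp8, a related receptor of ApoE, rose from 0.913, 1.16 and 0.420 CPM to 2.96, 4.41 and 3.25 CPM (log2 fold change 2.07 ± 0.50, edgeR, adjusted p = 0.0468). Both folds start from counts near the floor. In the normal livers Vldlr had 10, 6 and 7 reads and Lrp8 11, 18 and 5. Of 15 lipase, remodelling and efflux genes only Lpl passed, while the median of the list was -0.88. Lpl encodes the lipase that clears triglyceride from lipoproteins in tissues outside the adult liver. It rose from 23.8, 10.2 and 17.4 CPM in normal livers to 521, 264 and 300.1 CPM in model livers (log2 fold change 4.40 ± 0.48, edgeR, adjusted p = 0.00871). Macrophages are known to express Lpl. The macrophage and stellate cell marker sums given above were also highest in model liver 1. In model liver 2, with Lpl at 264 CPM, the macrophage sum (493 CPM) lay within the normal range (383 to 589 CPM). That sum mixes markers that went both ways. In model liver 2 Cd68, Adgre1, Csf1r, Trem2, Gpnmb and Lyz2 were above every normal liver. Cd163, Clec4f, Marco, Vsig4 and Cd5l were below every normal liver. Between the groups 5 of the 11 macrophage markers were higher and 2 (Clec4f and Marco) lower without overlap, as were 20.8% and 17.4% of all genes. The part of these cells in the rise of Lpl was not tested. Among 20 transcription factors known to act on apolipoprotein genes Cebpb fell from 654, 794.5 and 614 CPM to 215, 184 and 282 CPM (log2 fold change -1.60 ± 0.36, edgeR, adjusted p = 0.0398), 5 met the rule of the study as lower and 1 (Nr2f1) as higher, and the median was -1.02. Lrp8 and Cebpb lost their calls when any 1 of the normal livers or model liver 2 was left out, and Lrp8 also without model liver 1. Without normal liver 2 or 3 the adjusted p by edgeR was 0.0703 or 0.0798 for Vldlr and 0.0703 or 0.0840 for Lpl, with log2 fold changes between 4.12 and 4.43.

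In TA VS Model none of these pathway genes had an adjusted p under 0.05 by edgeR, while 6 were higher and 5 lower at an unadjusted p under 0.05. Tested were 7 other apolipoproteins, 16 genes of VLDL assembly, 13 receptor genes, 15 lipase and efflux genes and 20 transcription factors. Of all genes 15.6% had an unadjusted p under 0.05 in this comparison. The list medians were 1.06 for the other apolipoproteins, 0.49 for VLDL assembly, 0.05 for receptors, 0.62 for lipases and efflux and 0.88 for the transcription factors. Genes with the smallest p of their list included Apoc2 (log2 fold change 1.47), Dgat2 (1.12), Lpl (-1.67) and Cebpa (1.26), with adjusted p by edgeR of 0.328, 0.326, 0.252 and 0.252. By DESeq2 the adjusted p was 0.0141 for Lpl and 0.00949 for Cebpa, and over all alternatives both ran up to 0.567. Lpl was at 168, 67.2 and 105 CPM in the TA livers, below every model liver and above every normal liver. In TA VS Normal the list medians were -0.53, -0.11, 0.09, -0.13 and -0.08 in the same order. Lpl (log2 fold change 2.70 ± 0.41, edgeR, adjusted p = 0.0511) and Vldlr (2.96 ± 0.50, adjusted p = 0.0639; 6.27, 5.33 and 2.76 CPM in TA livers) did not pass by edgeR, and did by DESeq2 (adjusted p = 4.03e-08 and 1.84e-05). Blocked on the replicate number both passed by edgeR, at a log2 fold change of 2.68 for Lpl (adjusted p = 0.00129) and 2.94 for Vldlr (adjusted p = 0.0255). The other named genes of this comparison, Apoc2 (-0.99, adjusted p = 0.341), Dgat2 (-0.51, adjusted p = 0.669) and Ppara (-1.15, adjusted p = 0.418), did not pass.

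**Figure D5:**
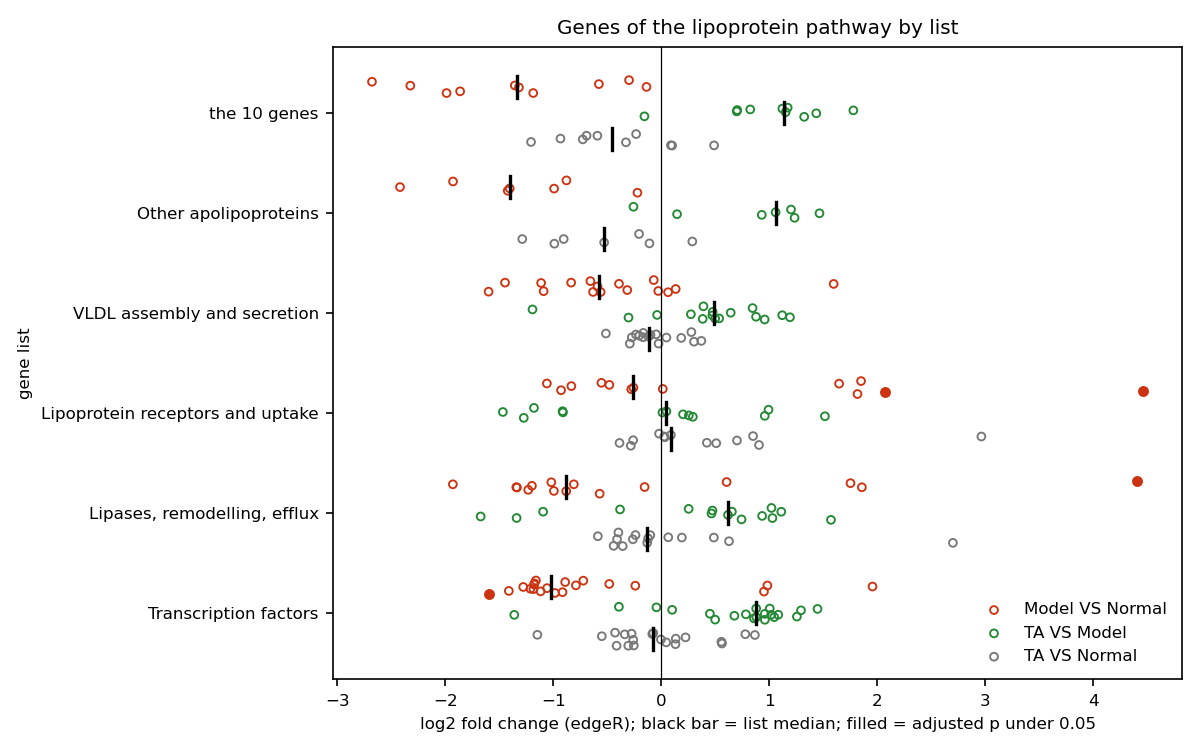
Log2 fold change by edgeR (horizontal axis) of every gene tested in the 10 members and 5 pathway lists (vertical axis), with list medians as black bars and genes with an adjusted p under 0.05 filled. The filled points are Vldlr, Lrp8, Lpl and Cebpb in Model VS Normal.

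Enterocyte markers were near 0 in every group. The 4 enterocyte markers in the tables, which would mark intestinal RNA with its own Apob, Apoa1 and Apoa4, summed to 1.22 to 2.49 CPM in normal, 1.57 to 2.90 in model and 0.930 to 3.28 in TA livers. Fabp2 was the highest of the 4 in every liver, and Lct was at 0 in 7 of the 9 livers. The 4 cholangiocyte markers summed to 15.7 to 23.5 CPM in normal, 75.8 to 139 in model and 28.7 to 32.4 in TA livers, the 4 lymphocyte markers to 23.4 to 35.5, 49.6 to 74.0 and 28.3 to 39.3, the 4 endothelial markers in the tables to 138 to 168, 116 to 235 and 148 to 202, and the 2 adipocyte markers in the tables to 24.5 to 69.2, 25.9 to 68.7 and 29.4 to 75.4. The adipocyte sum was nearly all Cfd, with Adipoq at 0.263 CPM or less.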

How the data were processed

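RNA from 9 rat livers (3 per group) was sequenced as poly(A) libraries on a NovaSeq. Per the labels and the study's methods, the authors trimmed reads, aligned them with STAR and made the deposited read counts per gene with HTSeq-count. The tables also hold a deposited signal, the counts divided by a DESeq2 size factor, and deposited FPKM values, which correct for gene length. The notes name mm9 and the methods name a human build, so which build was used stays unclear, the strand setting is not given in the sources used here, and the only coordinates printed are those of RefSeq promoter windows in GRCr8. The authors' own fold changes and p-values (normal against model, TA and model) were not used.

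Counts were tested pairwise with edgeR 4.0.16 (R 4.3.3, TMM, filterByExpr, quasi-likelihood in its default form, limma 3.58.1) and Benjamini-Hochberg adjustment over all genes tested. CPM are TMM-scaled over the 9 libraries, and FPKM serve only to rank genes within a group. DESeq2 1.42.0, size factors, library totals, other filters, a newer quasi-likelihood form, all 9 libraries in 1 fit, a replicate block and leaving out each library were alternatives. The members and lists were chosen with earlier results of these data known. All 10 members and, of the pathway lists, every gene with an adjusted p under 0.05 or else the gene with the smallest p are named. A result that this rule would name is not reported here. Genes outside this rule (Apoc4, Apom, Nr2f1) were named after their values were seen. Read depth of 13156735 to 18090405 counts leaves the counting error of the members small beside the spread between livers, since no member had under 188 reads in a liver. Nothing in the labels says more of the animals than 1 sample each, so p-values measure the spread between these samples. Scripts were tested on simulated data.

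Same-numbered livers deviated together in TA VS Normal, with correlations of 0.258, 0.426 and 0.501 over genes, and the block is given there. Livers of different number ran from -0.452 to 0.171 in that comparison. In Model VS Normal the correlations were 0.210, -0.0567 and -0.0519 and in TA VS Model 0.218, -0.0355 and 0.00655, so the numbers were not taken as pairs. Livers of different number ran there from -0.165 to 0.198 and from -0.215 to 0.195, respectively. Deviations were taken from group means, so the correlations within a comparison are not independent of each other.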

Additional observations from a re-analysis of the deposited data

How the results depend on the processing

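In Model VS Normal the count of members with an adjusted p under 0.05 went from 0 by edgeR to 5 with DESeq2, to 1 with all 9 libraries in 1 fit (Apoc1) and to 0 to 3 when 1 liver was left out (Apoc1 without model liver 1, and Apoa2, Apoa4 and Apoa5 without model liver 3). Without model liver 3 the count over all genes rose as well, from 1002 of 12730 to 2537 of 13159 by edgeR. The members that met the rule of the study went from 4 to between 1 and 6 when 1 liver was left out: 6 without model liver 3, 1 (Apoc1) without normal liver 1, 2 without normal liver 2, and 1 (Apoa4) without normal liver 3 or model liver 2. Of all genes 2818 of 12730 met it in the main fit. The extremes over all genes were 3917 of 13159 without model liver 3 and 2061 of 12884 without model liver 1. In TA VS Model the count of members by this rule went from 0 to 4 with DESeq2 (Apoa2, Apoa4, Apoa5 and Apoc3), to 3 with the replicate block (Apoa2, Apoa4 and Apoa5) and to 0 to 3 when 1 liver was left out (3 without model liver 3). The rule was met by 1571 of all 12781 genes in the main fit and by 2792 of 13140 without model liver 3. DESeq2 gave 431 genes as higher and 1430 as lower. In TA VS Normal the adjusted count went from 0 to 2 with DESeq2, and the count by the rule of the study from 1 to 0 with all 9 libraries and to 0 to 2 when 1 liver was left out (0 without normal liver 3, 2 without TA liver 2 or 3). All genes that met the rule there went from 640 to between 525 and 918 when 1 liver was left out. The counts over all genes at an adjusted p under 0.05 ran from 0 to 2654 in Model VS Normal, from 0 to 541 in TA VS Model and from 1 to 360 in TA VS Normal, where the replicate block gave 203. The block changed no adjusted call of a member, and it lost Lrp8 (adjusted p = 0.0575) and Cebpb (adjusted p = 0.0716) in Model VS Normal by edgeR. The cause of these changes was not tested.

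The sign turned for Apoa1 in Model VS Normal with library totals (0.45), without normal liver 1 (leaving out 1 liver gave -0.44 to 0.35) and per hepatocyte marker read (0.94), for Mttp there with library totals (0.18), without model liver 1 (-0.61 to 0.071) and per hepatocyte marker read (0.47), and for Apob per hepatocyte marker read (0.043). It also turned for Apoa1 in TA VS Model without TA liver 3 (-0.28 to 0.0036), for Apoa1 in TA VS Normal without normal liver 1 (-0.60 to 0.17) and per hepatocyte marker read (0.010), for Apoa5 there without normal liver 3 (-0.12 to 0.33) and for Apob there without TA liver 2 (-0.052 to 0.18). None of these values passed the test in either form. With library totals the median of all genes was 0.65 in Model VS Normal, -0.48 in TA VS Model and 0.18 in TA VS Normal, and relative to it Apoa1 (-0.20) and Mttp (-0.47) kept their sign in Model VS Normal. The calls of the study's rule over all genes were 2112 higher and 706 lower in Model VS Normal with TMM and 3738 and 221 with library totals, and 270 higher and 1301 lower in TA VS Model with TMM and 89 and 2358 with library totals. The share of reads held by the members kept its direction under every alternative run, but not every separation of groups. Per read of the hepatocyte markers, TA and normal livers overlapped (log2 ratio -0.36, exact permutation test, p = 0.4). TA VS Model was then 0.23 (exact p = 0.4), and Model VS Normal stayed without overlap (-0.59, exact p = 0.1).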
